A study of Mus musculus with 369 samples.

Results

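Among brain microglia sorted with no enrichment for activated cells, some carried Spp1 RNA and most did not, and the genes of these 2 kinds of cell were compared within a wild-type plate and again within a Trem2 knockout plate. The groups were chosen by the measured Spp1 level alone: a cell was called Spp1-positive at 10 CPM (counts scaled to a common total of gene counts per cell) or more and Spp1-negative below it. Of the 168 unselected cells that passed quality control, 52 were positive and 116 were negative. The whole series, with its gated plates, holds 334 single cells that passed. In wild-type cells 27 of 78 were positive, a share of 34.6% with an exact (Clopper-Pearson) 95% interval of 24.2 to 46.2%. In knockout cells 25 of 90 were positive, a share of 27.8% with an interval of 18.9 to 38.2%.

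Spp1 encodes osteopontin, a secreted phosphoprotein that binds integrins and CD44. In the early postnatal brain, microglia with high Spp1 gather in developing white matter, where they engulf newly formed oligodendrocytes, and they share RNAs such as Gpnmb, Itgax, Clec7a and Igf1 with the disease-associated microglia of ageing and neurodegeneration. Trem2 is a microglial lipid receptor that signals through the adaptor Tyrobp and is needed for much of the disease-associated program in adult models.

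The cells came from whole brains of male C57BL6J mice at postnatal day 7, either wild type or carrying the genotype labelled TREM2_KO. The tissue was dounced, myelin was removed on magnetic beads, and single cells of the CD45lowCD11+ gate were sorted into plates and made into libraries by the Smart-seq2 full-length method. Each genotype had 1 such plate, 1 cell filled each well, and a further plate per genotype held cells gated on Gpnmb and Clec7a. The labels name no animal, give no design for the knockout allele, and give all 4 plates the same pooled library name. Each of the 4 groups compared here is therefore 1 sample, cells are not replicates, and no test was made. Levels are counts summed over the cells of a group, in CPM, with exact Poisson 95% intervals that cover counting error only. A difference is the log2 ratio of positive over negative after adding 1 CPM to each level, which understates differences of genes at low levels, and a gene is called higher or lower at 2-fold or more.

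The targeted gene was read first. Trem2 stood at 1234 CPM in wild-type positive and 1059 CPM in wild-type negative cells. In the plate labelled knockout it stood at 323 and 186 CPM, and its RNA was found in 24 of 25 positive and 37 of 65 negative cells after each cell was thinned to 100000 gene counts. Reads from Trem2 thus remained in cells labelled knockout, more of them in the Spp1-positive cells, and which part of the gene they cover was not analysed here.

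All 9 microglia markers, Tmem119, P2ry12, Siglech, Sall1 and Cx3cr1 among them, were measured in every group, and 0 of 9 differed by 2-fold between positive and negative cells in either plate. They are abundant RNAs, and among all 676 genes with a mean of 200 CPM or more, 2 were 2-fold higher and 0 lower in both plates. Summed over the 9 genes, cells had a median of 34147 CPM in wild-type positive cells (15181 to 57781) and 41279 CPM in wild-type negative cells (16186 to 58392). The knockout medians were 36784 CPM (21547 to 62810) and 43216 CPM (0 to 62515). The label of microglia thus held for the groups, with 1 end of the knockout negative range at 0.

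Detected genes and markers of other macrophages differed between the groups and are given here once. Gene counts per cell ran from 157653 to 1051282. Their medians were 501518 in wild-type positive and 488954 in wild-type negative cells, and 714841 and 629732 in knockout cells. Positive cells had more detected genes in both plates. The median was 4078 (1072 to 6860) against 2316 (1183 to 7001) in wild-type cells and 3141 (1289 to 4781) against 1987 (405 to 4441) in knockout cells. After thinning to 100000 gene counts the medians were 2732 against 2044 and 2454 against 1826. Of 10 markers of border-associated macrophages, the macrophages of meninges and perivascular spaces, 3 or more were present at 10 CPM or more in 6 of 27 positive and 2 of 51 negative wild-type cells, and in 11 of 25 positive and 4 of 65 negative knockout cells. The summed level of these markers had medians of 884 CPM (5.41 to 3558) against 552 CPM (0 to 2589) in wild-type cells and 612 CPM (38.6 to 1930) against 778 CPM (0 to 5687) in knockout cells. Mrc1 and Stab1 made up most of that level, whereas Lyve1, Cd163 and F13a1 had 0 counts in both positive groups. Without the cells that held 3 or more of these markers, the log2 ratio of positive over negative cells was 7.43 and 6.14 for Gpnmb and 3.53 and 5.96 for Hpse in the wild-type and knockout plates. Among cells in the middle range of detected genes, from the 25th to the 75th percentile of their plate, the ratios were 10.09 and 6.45 for Gpnmb and 3.75 and 6.43 for Hpse. In the knockout plate both cuts left out the only negative cells with these RNAs, at 429 and 119 CPM of Gpnmb. The knockout negative cells that remained had no count of either gene, which raised the ratios. The wild-type middle range held 11 positive cells, among them the cell with 15601 CPM of Gpnmb.

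**Figure D1:**
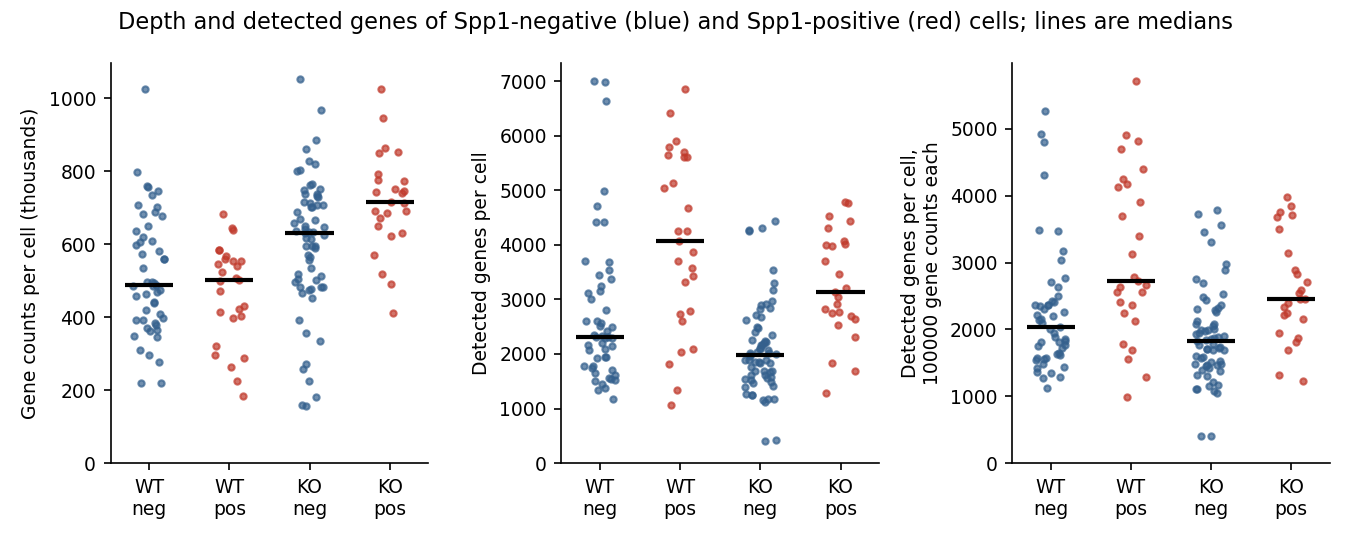
Gene counts per cell, detected genes per cell, and detected genes after thinning each cell to 100000 gene counts, by plate and Spp1 call, with 1 point per cell and a line at the median. Gene counts overlap widely between positive and negative cells, while the median number of detected genes is 4078 against 2316 in the wild-type plate and 3141 against 1987 in the knockout plate.

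The Spp1 levels that chose the groups spanned several orders of magnitude within the positive cells. In the wild-type plate 39 cells had 0 Spp1 counts and 12 had some counts below the limit, the highest of them at 9.85 CPM from 6 counts. The lowest positive wild-type cell had 15.95 CPM from 8 counts, the median was 349 CPM and the highest was 45914 CPM. Most positive cells were thus far above the limit, and 1 cell stood apart from the next at 12554 CPM. In the knockout plate 51 cells had 0 Spp1 counts and 14 had some below the limit, up to 4.65 CPM from 4 counts. The lowest positive knockout cell had 11.6 CPM from 6 counts, the median was 487 CPM and the highest was 44907 CPM, with the next at 24915 CPM. A few cells held most of the Spp1 RNA. The top cell held 50.9% of the wild-type plate's Spp1 counts and 40.1% of the knockout plate's, and the top 3 cells held 70.1% and 80.6%. In the gated plates, by comparison, 77 of 90 wild-type cells (85.6%) and 73 of 76 knockout cells (96.1%) reached 10 CPM.

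**Figure D2:**
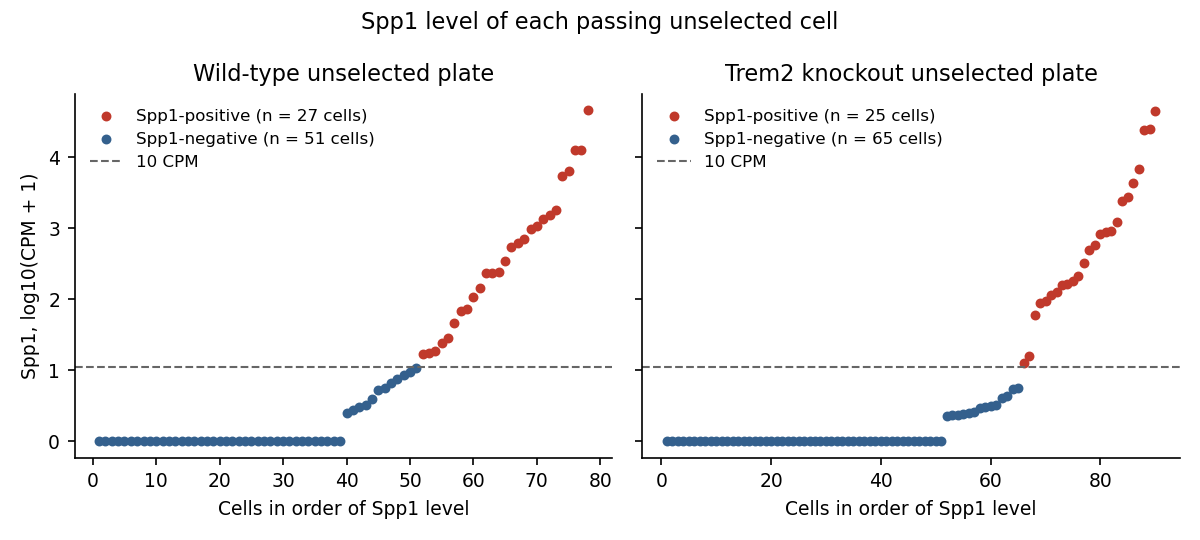
Spp1 level of each unselected cell that passed quality control, as log10(CPM + 1) with 1 point per cell in order of its level and the limit of 10 CPM as a dashed line. The highest negative cells stand at 9.85 CPM (wild type) and 4.65 CPM (knockout), and the positive cells spread from 15.95 to 45914 CPM and from 11.6 to 44907 CPM.

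Genes were then compared across the whole table, leaving out Spp1. In the wild-type plate 1848 of 9589 measured genes (5 CPM or more in either group; 19.3%) were 2-fold or more higher in positive cells and 2564 (26.7%) were lower. In the knockout plate 1699 of 9805 (17.3%) were higher and 2585 (26.4%) were lower. Scaled on spike-in RNA in place of gene counts, the knockout split was 2386 higher and 2067 lower, because that scaling moved the median of all knockout genes from -0.13 to 0.23. Counts of this size, from groups of 25 to 65 cells, are the background against which any named gene must be read.

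The plates shared few of these differences. Of 8798 genes measured in both plates, 326 (3.71%) were 2-fold or more higher in positive cells of both, which is 21.2% of the genes higher in wild-type cells and 23.9% of those higher in knockout cells. A further 681 (7.74%) were lower in both, or 30.9% and 32.8% of each plate's lower genes. Over all 8798 genes, 15.5% were higher in knockout and 17.5% in wild-type cells, and 23.6% and 25.1% were lower, shares to set beside these overlaps. Another 936 genes went in opposite directions, 493 (5.6%) higher in wild-type and lower in knockout cells and 443 (5.04%) the other way round. The median difference over all genes was -0.10 in wild-type and -0.13 in knockout cells on the log2 scale, and Spearman's rho between the plates across genes was 0.02, as a description only because genes are not independent replicates. Differences of 2-fold were mainly a matter of scarce RNAs. Among 2441 genes with a mean under 20 CPM, 510 went in opposite directions, whereas among 676 genes at 200 CPM or more 0 did, 2 were higher in both plates, 0 were lower in both, and rho was 0.16.

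**Figure D3:**
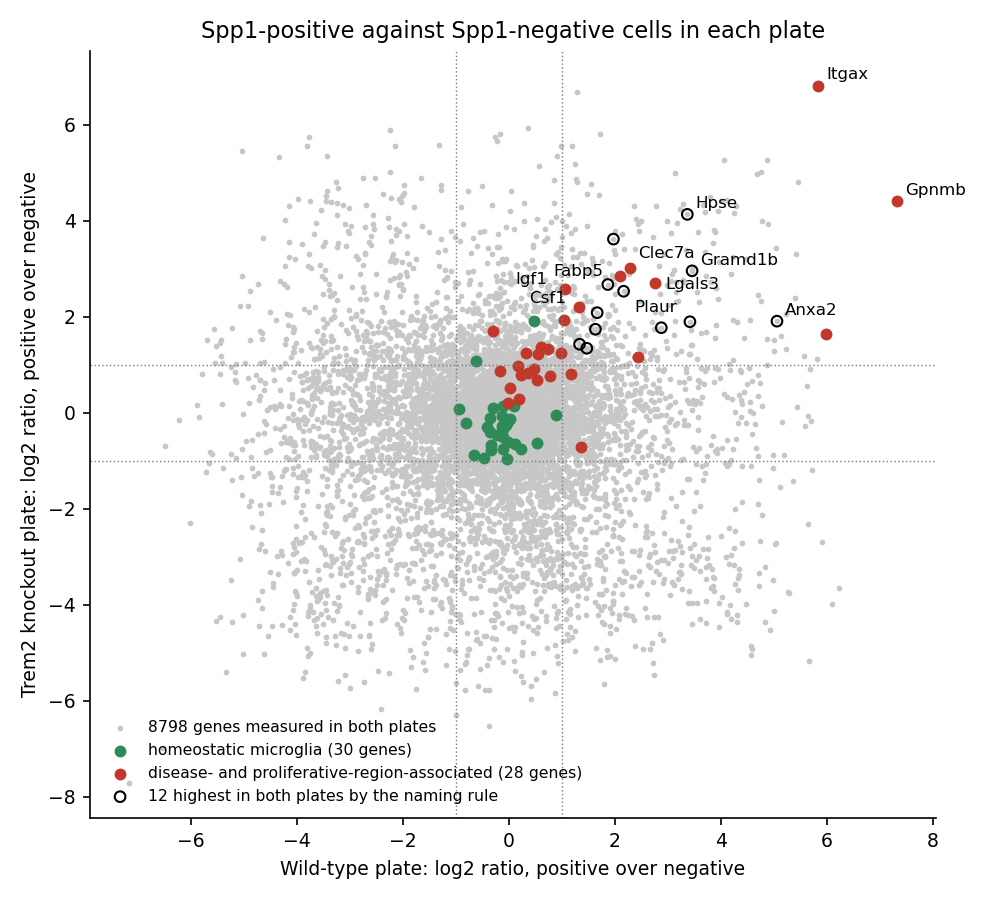
Log2 ratio of Spp1-positive over Spp1-negative cells in the wild-type plate (horizontal axis) and the knockout plate (vertical axis) for the 8798 genes measured in both, with dotted lines at 2-fold. The cloud has no slope to speak of (rho 0.02), while Gpnmb, Itgax, Clec7a, Hpse and Anxa2 lie in the upper right and the homeostatic genes gather near 0.

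Against that background the genes known from disease-associated and proliferative-region-associated microglia stood mostly on the positive side. Of 28 measured members other than Spp1, 12 were 2-fold or more higher and 0 lower in wild-type cells (background 19.3% and 26.7%), with a median log2 ratio of 0.75. In knockout cells 16 of 28 were higher and 0 lower (background 17.3% and 26.4%), with a median of 1.24. Many members are abundant, and among all 676 genes with a mean of 200 CPM or more, 2 were higher and 0 lower in both plates. The background shares come mainly from scarce RNAs and are not matched to the list in level, so 0 lower says little for its abundant members. Gpnmb, Itgax, Clec7a, Igf1, Fabp5, Cst7, Lgals3, Lgals1, Csf1 and Ank were higher in both plates, although the wild-type ratio of Cst7, 2.44, was -0.054 without cells holding border-associated macrophage markers and -0.44 among cells in the middle range of detected genes. The list holds genes known to accompany Spp1 and was chosen with earlier results of these data known, so it is not independent evidence of its direction. After thinning, the median number of its 30 genes with a count was 19 per positive cell against 14 per negative cell in the wild-type plate and 19 against 12 in the knockout plate. Over all genes the thinned medians were also higher in positive cells, at 2732 against 2044 and 2454 against 1826, so more genes with a count is not particular to this list.

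Gpnmb, a transmembrane glycoprotein of phagocytes, had the largest wild-type ratio in the list. Wild-type positive cells had a median of 16.9 CPM and a highest value of 15601 CPM, and negative cells a median of 0 and a highest value of 63.6 CPM. The summed level was 662 CPM (648 to 676) against 3.15 CPM, a log2 ratio of 7.32. The positive group's level rested largely on 1 cell, which held 75.6% of its Gpnmb counts, and without the cell richest in Spp1 the ratio was 5.34. Gpnmb RNA was nevertheless found in 16 of 27 positive against 5 of 51 negative cells (59.3% against 9.8% after thinning, 70.4% against 13.7% before). In knockout cells the level was 248 CPM against 10.7 CPM, a log2 ratio of 4.41, with Gpnmb in 11 of 25 positive and 2 of 65 negative cells and a highest value of 2777 against 429 CPM. The groups overlapped in both plates because many positive cells had no Gpnmb count. Gpnmb lies on chr6 at 49036546 to 49070929 on the plus strand of mm10 (GENCODE M21, ENSMUSG00000029816.10), and Spp1 on chr5 at 104435118 to 104441050, also on the plus strand (ENSMUSG00000029304.14).

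Itgax encodes the integrin CD11c. Its level in wild-type cells was 64.7 CPM in positive and 0.152 CPM in negative cells, with a highest cell of 640 CPM against 2.16 CPM, a log2 ratio of 5.83. In knockout cells it was 111 CPM against 0 counts in 65 negative cells, a log2 ratio of 6.81. With 3 counts as the negative group's upper limit, the summed level was at least 1448-fold higher. That bound covers counting in the negative group alone and not the spread between cells. The knockout level came mostly from 1 cell with 73.1% of the counts, and before thinning 40.0% of positive knockout cells had a count. Clec7a, the beta-glucan receptor dectin-1, stood at 117 against 23.2 CPM in wild-type and 104 against 12.05 CPM in knockout cells, log2 ratios of 2.28 and 3.01. It was found in 16 of 27 against 3 of 51 wild-type cells and in 6 of 25 against 3 of 65 knockout cells, where 1 cell held 78.6% of the counts. These receptor genes were thus absent from most negative cells in both plates, and in both their summed levels in positive cells came largely from few cells. In the wild-type plate the highest positive cells had 640, 448 and 366 CPM of Itgax and 985, 628 and 508 CPM of Clec7a. Itgax also had no count in most positive cells of both plates, and Clec7a had none in most positive knockout cells.

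The list also holds secreted factors. Igf1, insulin-like growth factor 1, stood at 97.6 against 46.3 CPM in wild-type cells, with medians per cell of 16.1 and 0 and highest values of 1029 and 950 CPM. The log2 ratio was 1.06, and it was 0.52 without the cell richest in Spp1. In knockout cells Igf1 stood at 167 against 27.1 CPM, a log2 ratio of 2.58, and was found in 18 of 25 positive against 8 of 65 negative cells. Csf1, a ligand of the receptor on which microglia depend for survival, stood at 37.5 against 14.4 CPM and at 96.7 against 20.4 CPM, log2 ratios of 1.32 and 2.19. Its wild-type ratio was -0.26 among cells in the middle range of detected genes. The galectin gene Lgals3 had 5.72 CPM against 0 counts in wild-type cells, at least 50.2-fold higher on the same limit for counting alone. In knockout cells it stood at 61.7 against 8.67 CPM.

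Other members were abundant. Apoe, the main lipid carrier of the brain, stood at 12794 against 10276 CPM in wild-type cells and 18248 against 7715 CPM in knockout cells, log2 ratios of 0.32 and 1.24. Ctsl and Ctsb, lysosomal proteases, had log2 ratios of 0.77 and 0.37 in wild-type and 0.75 and 0.82 in knockout cells. Tyrobp, the adaptor of Trem2, had ratios of 0.18 and 0.28. The tetraspanin gene Cd9 stood at 2148 against 851 CPM in knockout cells, the lysosomal Pld3 at 995 against 387 CPM and the lysozyme gene Lyz2 at 1450 against 617 CPM, log2 ratios of 1.33, 1.36 and 1.23, with wild-type ratios of 0.73, 0.60 and 0.55. Of these 7 genes, Apoe, Cd9, Pld3 and Lyz2 reached 2-fold in the knockout plate and 0 did in the wild-type plate.

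**Figure D4:**
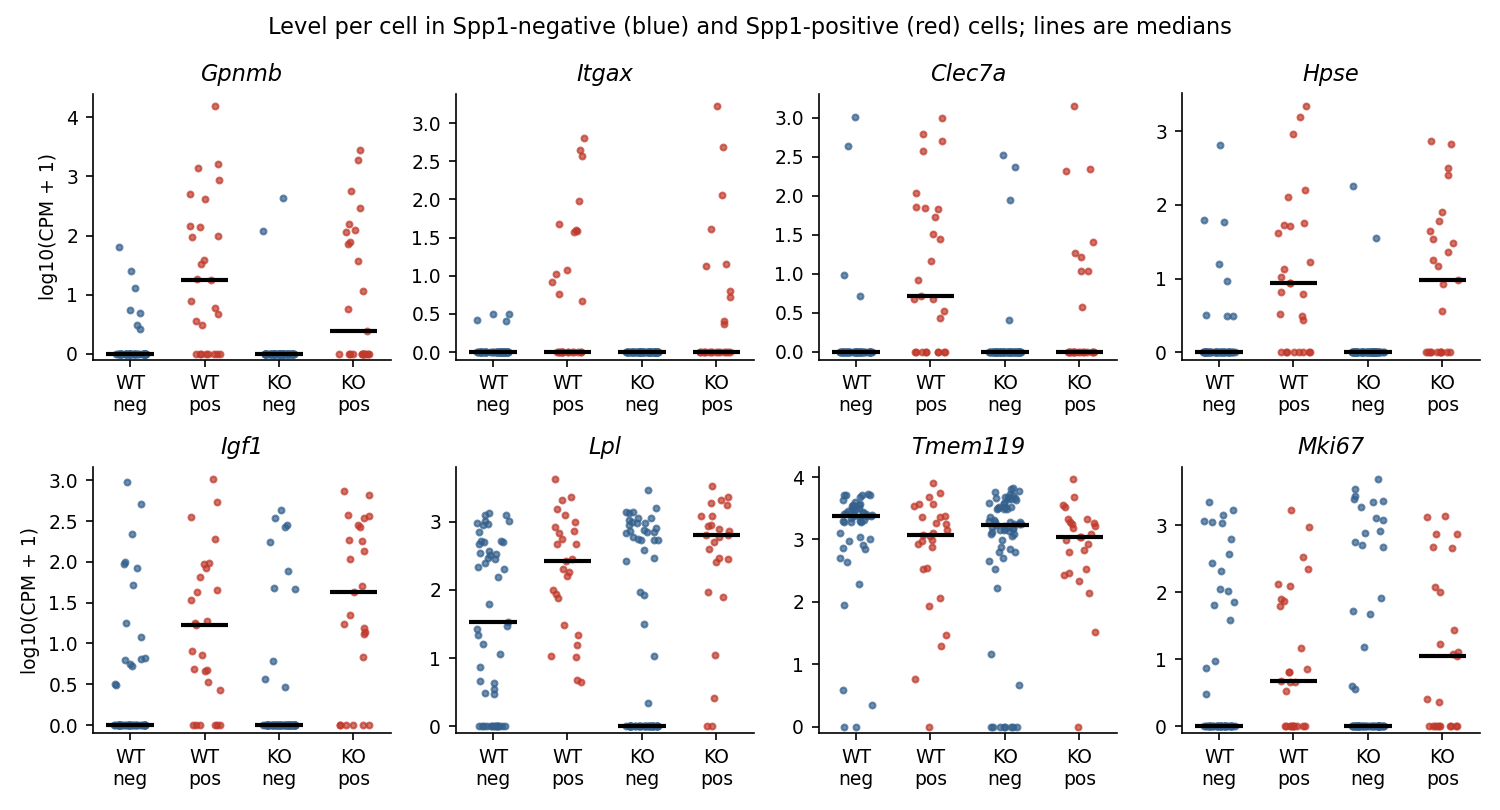
Level of 8 genes in each cell as log10(CPM + 1), by plate and Spp1 call, with 1 point per cell and a line at the median. Gpnmb, Itgax and Hpse are at 0 in most negative cells. Gpnmb and Hpse are also at 0 in many positive cells and Itgax in most of them, whereas Tmem119 has a count in most cells of every group.

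Levels were then read within the positive cells by their amount of Spp1. The 18 wild-type cells from 10 to 1000 CPM of Spp1 had 74.5 CPM of Gpnmb and the 9 cells at 1000 CPM or more had 1991 CPM, against 3.15 CPM in negative cells. In knockout cells the corresponding levels were 16.6 CPM in 17 cells, 714 CPM in 8 cells and 10.7 CPM in negative cells. Much of this rested on single cells. Without the cell of each plate with the most Spp1, a choice made after seeing the data, Gpnmb in the top range was 399 CPM over 8 wild-type cells and 396 CPM over 7 knockout cells. Igf1 stood at 46.3, 50.7 and 204 CPM from negative to highest wild-type cells and at 27.1, 107 and 289 CPM in knockout cells, and the top range was 107 and 232 CPM without the same cells. In the wild-type plate Igf1 was thus higher in the cells richest in Spp1, and in the knockout plate the middle range was above the negative cells as well. Tmem119 went the other way, with 2383, 2235 and 1090 CPM in wild-type and 2385, 1974 and 544 CPM in knockout cells. Clec7a did not follow this order in knockout cells, at 12.05, 125 and 62.1 CPM.

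Genes were also named by a rule that asked for 20 CPM or more, a count in at least 25% of cells of the higher group, the same direction by summed counts, by mean level per cell and by share of cells, and no single cell with more than 50% of the counts, in both plates. There were 642 genes that met it on the positive side and 50 on the negative side, a lopsided number in cells of which the positive ones have more detected genes. The 12 with the largest smaller ratio were Hpse, Gramd1b, Plaur, Anxa2, Clpb, Sap30bp, Shprh, Timm44, Ptpmt1, Ssu72, Neat1 and Fam105b.

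Hpse encodes heparanase, the enzyme that cleaves heparan sulfate chains of the extracellular matrix. Its level was 151 CPM (144 to 158) in wild-type positive cells, with a median of 7.63 and a highest cell of 2212 CPM, against 13.8 CPM in negative cells, with a median of 0 and a highest cell of 653 CPM. The log2 ratio was 3.36. In knockout cells it was 90.2 CPM (85.8 to 94.7) against 4.20 CPM, a log2 ratio of 4.13. Hpse was found in 16 of 27 against 6 of 51 wild-type cells and in 14 of 25 against 2 of 65 knockout cells after thinning, and in 70.4% against 15.7% of wild-type cells before. The ranges of single cells overlapped in both plates, but most negative cells had no count. The highest positive cells had 2212, 1565 and 913 CPM in the wild-type plate and 736, 680 and 320 CPM in the knockout plate. The summed levels thus came largely from few cells, and their intervals cover counting error only. Hpse lies on chr5 at 100679484 to 100719716 on the minus strand of mm10 (ENSMUSG00000035273.14).

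Plaur and Anxa2 belong to the plasminogen system, as the urokinase receptor and as a cell-surface protein that binds plasminogen and its activator. Plaur stood at 34.4 against 6.90 CPM in wild-type and 43.2 against 6.67 CPM in knockout cells, log2 ratios of 2.16 and 2.53. It was found in 8 of 27 against 1 of 51 and in 7 of 25 against 2 of 65 cells. Anxa2 stood at 33.5 CPM against 0.038 CPM in wild-type cells, where the negative cells had 1 count in all, so that the ratio of 883 has a counting interval of 158 to 34976. In knockout cells Anxa2 stood at 126 against 32.8 CPM, a log2 ratio of 1.91, and 7 of 65 negative cells had it. Among related genes, Anxa5, which binds phosphatidylserine, stood at 164 against 54.5 CPM and at 313 against 97.5 CPM, log2 ratios of 1.57 and 1.67. Anxa5 was found in 17 of 27 against 11 of 51 wild-type and 20 of 25 against 11 of 65 knockout cells.

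Gene starts were searched for short motifs because these genes were higher together in both plates. Of the 12 named genes and the 10 list members higher in both plates, 17 of 22 had a window in the RefSeq promoter table (GRCm38.p6, 250 bases before to 50 after the start, 300 in all). The AP-1 motif TGANTCA, searched on both strands, was present for 7 of these 17 genes (Anxa2, Cst7, Gpnmb, Igf1, Itgax, Plaur and Sap30bp) and in 7.81% of all 32851 windows. A gene was counted if any of its windows held the motif, so the share of genes and the share of windows are in unlike units. The E-box CACGTG, its own reverse complement, was present for 0 of 17 genes and in 7.15% of all windows. A match is a description of these letters and not a site. The stretches around the motif of Itgax (chr7:128129454-128129540, plus strand, motif 56 bases before the start) and of Plaur (chr7:24462374-24462460, plus strand, 69 bases before the start) are shown because they lie before the start of a receptor gene higher in both plates and in no annotated exon, with the motif in capitals.
Itgax: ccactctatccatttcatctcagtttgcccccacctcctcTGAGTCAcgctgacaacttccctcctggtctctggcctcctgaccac
Plaur: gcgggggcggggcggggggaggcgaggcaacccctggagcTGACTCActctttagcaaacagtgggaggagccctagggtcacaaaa
Both are written 5′ to 3′ from RefSeq.

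The other named genes have varied roles. Gramd1b, a sterol carrier between plasma membrane and endoplasmic reticulum, stood at 78.9 against 6.29 CPM and 53.9 against 6.08 CPM, log2 ratios of 3.45 and 2.95. Neat1, the noncoding RNA of paraspeckles, stood at 54.1 against 16.4 CPM and 98.0 against 22.4 CPM. It was found in 14 of 27 against 2 of 51 wild-type and 8 of 25 against 4 of 65 knockout cells. The 12 include 3 mitochondrial genes, Clpb (a chaperone), Timm44 (an import factor) and Ptpmt1 (a phosphatase of cardiolipin synthesis), with wild-type and knockout log2 ratios of 3.41 and 1.89, 1.63 and 1.74, and 1.47 and 1.34. Ptpmt1 had a knockout ratio of -0.32 among cells in the middle range of detected genes. Of 29 oxidative phosphorylation genes 0 were higher and 0 lower in wild-type cells, and 1 was higher and 0 lower in knockout cells. Over all genes 19.3% were higher and 26.7% lower in wild-type and 17.3% and 26.4% in knockout cells. The 3 mitochondrial genes were named for being higher, so they and the list are not alike as sets. Ssu72 and Shprh, a phosphatase of RNA polymerase II and a ubiquitin ligase of the DNA damage response, had ratios of 1.33 and 1.43, and of 2.87 and 1.77. Sap30bp and Fam105b had ratios of 1.86 and 2.67, and of 1.97 and 3.62.

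The lower genes had varied functions. They included the actin-nucleating complex member Arpc5l (log2 ratios of -1.34 and -1.52), the chromatin proteins Phip (-1.34 and -1.72) and Smchd1 (-1.30 and -1.94), the centrosome protein Cep250 (-1.30 and -1.81), the glucose-responsive factor Mlxipl (-1.21 and -1.04), the lysophosphatidic acid receptor gene Lpar6 (-0.90 and -1.12), Tmem37 (-0.94 and -1.83) and the histone acetyltransferase gene Myst3 (-0.85 and -0.96). Hiat1 stood at 10.0 against 202 CPM in wild-type cells and 81.2 against 185 CPM in knockout cells, log2 ratios of -4.21 and -1.18. Lpar6 and Tmem37 reached 2-fold in the knockout plate alone, and Myst3 in neither. When cells with any Spp1 count were set against cells with 0 counts, the wild-type ratios were 0.39 for Arpc5l and 0.28 for Smchd1 and the knockout ratio was 0.019 for Mlxipl. Even the lower genes were found in many positive cells, for instance Phip in 11 of 27 positive against 25 of 51 negative wild-type cells.

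Homeostatic genes, mostly the surface receptors and transcription factors that define resting microglia, were near parity. Of 30 measured, 0 were 2-fold higher and 0 lower in wild-type cells, with a median log2 ratio of -0.12 beside -0.10 for all genes. In knockout cells 2 of 30 were higher, Mertk among them, 0 were lower, and the median was -0.29 beside -0.13, or 0.071 beside 0.23 when scaled on spike-in RNA. The shares over all genes were 19.3% higher and 26.7% lower in wild-type and 17.3% and 26.4% in knockout cells. Most genes of this list are abundant, and among all 676 genes at 200 CPM or more only 2 were higher and 0 lower in both plates. P2ry12, the purine receptor of microglial processes, stood at 4704 against 5530 CPM in wild-type and 4300 against 5931 CPM in knockout cells. Slc2a5, a fructose transporter, had ratios of -0.66 and -0.88, Selplg of -0.34 and -0.79, and Il10ra of -0.46 and -0.94. In the cells with 1000 CPM or more of Spp1, P2ry12 stood at 2765 CPM in the wild-type and 3858 CPM in the knockout plate.

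Of 19 lipid-handling genes measured in wild-type cells, 7 were 2-fold higher and 0 lower (background 19.3% and 26.7%), with a median of 0.71. In knockout cells 6 of 21 were higher and 2 lower (background 17.3% and 26.4%), with a median of 0.51. Fabp5 and Fabp3, carriers of fatty acids, were higher in both plates, and these are also scarce RNAs. Fabp5 stood at 36.3 against 7.70 CPM and 52.4 against 6.44 CPM. Lpl, lipoprotein lipase, was abundant and stood at 589 against 297 CPM in wild-type cells and 882 against 371 CPM in knockout cells, log2 ratios of 0.98 and 1.25. It was found in 24 of 27 against 30 of 51 and in 23 of 25 against 30 of 65 cells. Plin2, a coat protein of lipid droplets, stood at 359 against 124 CPM and 545 against 305 CPM, ratios of 1.53 and 0.84. The Plin2 medians per cell were 371 and 391.96 CPM in positive cells and 0 in both negative groups, so its difference was not the work of a single cell.

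**Figure D5:**
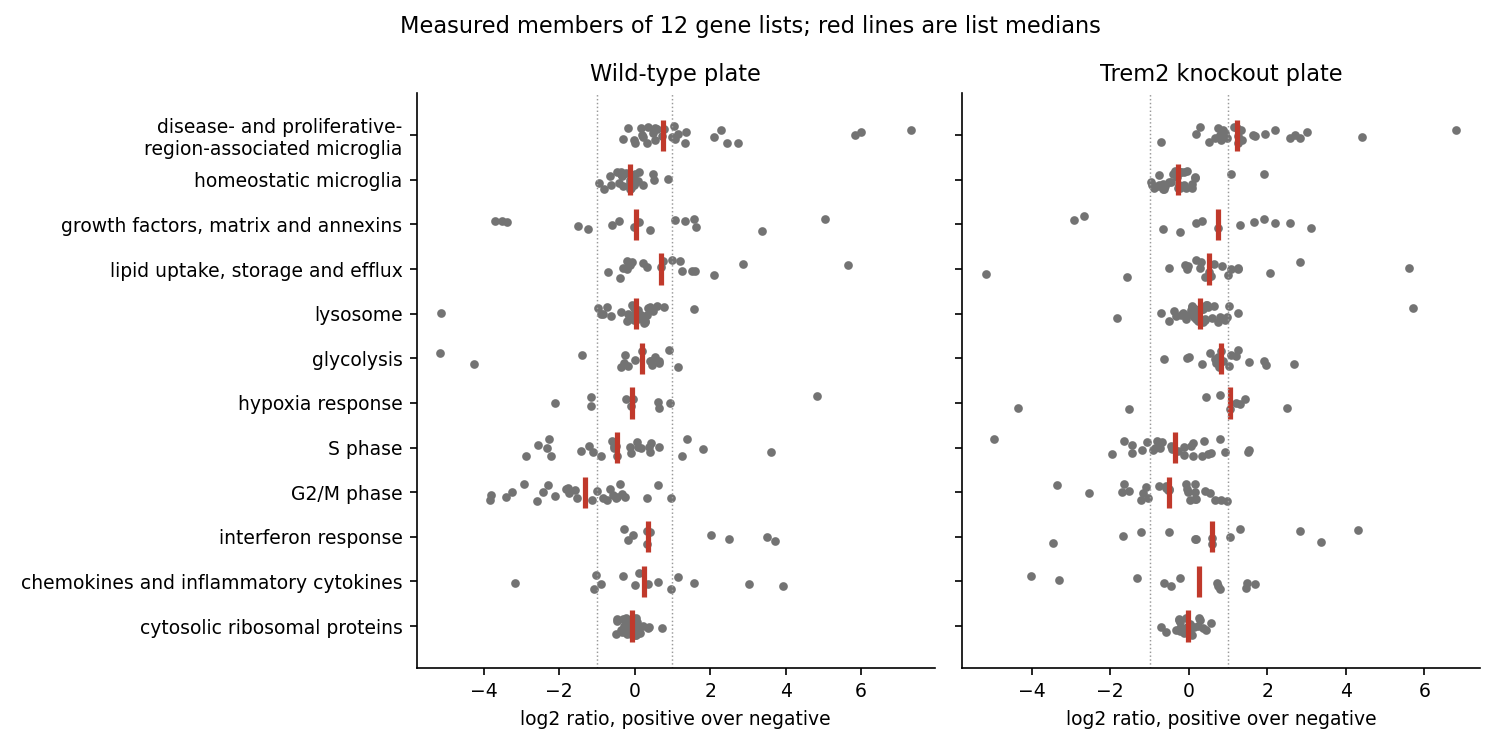
Log2 ratio of positive over negative cells for the measured members of 12 gene lists in the wild-type and knockout plates, with 1 point per gene, a red line at the median of each list and dotted lines at 2-fold. The disease-associated list has the medians 0.75 and 1.24, the G2/M list -1.32 and -0.50 and the ribosomal proteins -0.06 and -0.02.

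Genes of the G2 and M phases were called lower in wild-type positive cells more often than all genes were. Of 28 measured genes of these phases, 15 were 2-fold lower and 0 higher in wild-type cells (background 26.7% and 19.3%), with a median of -1.32. In knockout cells 9 of 28 were lower and 0 higher (background 26.4% and 17.3%), with a median of -0.50. Aurka, Bub1, Bub1b, Cenpe and Nusap1, a mitotic kinase, checkpoint kinases, a kinetochore motor and a spindle protein, were lower in both. Mki67, the proliferation marker Ki-67, stood at 114 against 206 CPM in wild-type and 195 against 413 CPM in knockout cells. The share of cells with Mki67 went the other way, 11 of 27 against 16 of 51 and 11 of 25 against 18 of 65 after thinning. The median number of the 29 G2 and M genes with a count was also higher per positive cell, 3 against 1 in wild-type and 5 against 1 in knockout cells. The highest single cells had 1687 against 2219 CPM of Mki67 in wild-type and 1359 against 4813 CPM in knockout cells. Levels and shares of cells thus pointed in opposite directions for Mki67, and detected genes per cell differ between the groups as given above. Where cells with any Spp1 count were set against cells with 0 counts, the wild-type G2 and M median turned to 0.22. Of 28 S-phase genes, 4 were higher and 8 lower in wild-type and 2 and 7 in knockout cells, beside the same background shares. Their wild-type median of -0.47 turned to 0.46 where any Spp1 count made a cell positive, and their knockout median of -0.34 was 0.015 when scaled on spike-in RNA.

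Glycolysis and hypoxia genes were called higher more often in the knockout plate, and whether the plates differ was not tested. Of 19 glycolysis genes 8 were 2-fold higher and 0 lower in knockout cells, with a median of 0.82, while in wild-type cells 1 of 17 was higher and 3 lower, with a median of 0.18. The background shares were 17.3% higher and 26.4% lower in knockout and 19.3% and 26.7% in wild-type cells. The wild-type median was -0.22 without cells holding border-associated macrophage markers. Tpi1, a triose phosphate isomerase, stood at 512 against 135 CPM in knockout and 246 against 157 CPM in wild-type cells. It was found in 17 of 25 against 19 of 65 and in 23 of 27 against 20 of 51 cells. Slc16a3, a lactate exporter, had ratios of 1.54 and 0.91. Of the hypoxia list, 5 of 9 were higher and 2 lower in knockout cells and 1 of 10 higher and 3 lower in wild-type cells, with medians of 1.06 and -0.07. The knockout hypoxia median was -0.16 among cells in the middle range of detected genes.

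Lysosomal genes differed little, with 1 of 35 higher and 1 lower in wild-type and 3 of 36 higher and 1 lower in knockout cells and medians of 0.03 and 0.29. Cd63, a tetraspanin of late endosomes, had ratios of 0.48 and 0.91. Of 30 cytosolic ribosomal protein genes 0 were higher or lower in either plate. The counts of these and the following lists stand beside 19.3% higher and 26.7% lower over all wild-type genes and 17.3% and 26.4% over all knockout genes. Interferon genes had 4 of 10 higher and 0 lower in wild-type and 5 of 13 higher and 3 lower in knockout cells. Antigen presentation had 3 of 15 higher and 2 lower, and 0 of 13 higher and 3 lower. Chemokines and cytokines had 4 of 14 higher and 3 lower, and 3 of 12 higher and 3 lower. The chemokine genes Ccl6 and Ccl9 had knockout ratios of 1.46 and 1.48 and wild-type ratios of 0.62 and 0.12. Complement and phagocytosis genes had 2 of 21 higher and 1 lower in each plate, early response genes 5 of 17 higher and 1 lower and 5 of 19 higher and 6 lower, sterol synthesis genes 6 of 20 higher and 7 lower and 2 of 18 higher and 6 lower, and genes of Trem2 signalling 1 of 20 higher and 3 lower and 1 of 19 higher and 2 lower.

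Of 16 genes for osteopontin receptors and processing enzymes, 9 were measured in wild-type and 8 in knockout cells. The wild-type genes split into 3 higher and 3 lower, beside 19.3% and 26.7% of all genes, and the knockout genes into 3 higher and 1 lower, beside 17.3% and 26.4%. The integrin subunit genes Itgb5 and Itgb1 were abundant and near parity. Itgb5 stood at 817 against 742 CPM in wild-type and 731 against 753 CPM in knockout cells, and Itgb1 at 350 against 336 CPM and 354 against 401 CPM. Itgb3, the beta subunit of a vitronectin and osteopontin receptor, was lower in both plates, at 4.84 against 42.5 CPM and 9.50 against 41.4 CPM, log2 ratios of -2.90 and -2.01. Itga5, an integrin subunit, was higher in both plates, at 57.8 against 25.6 CPM and 59.4 against 23.4 CPM, log2 ratios of 1.14 and 1.31. Fam20c, the kinase that phosphorylates secreted proteins such as osteopontin, had counts in positive cells alone, at 17.3 CPM in wild-type and 6.43 CPM in knockout cells, with 1 cell holding 85.8% and 92.2% of them. The log2 ratios were 4.19 and 2.89. With 3 counts as the limit for the negative group, the summed levels were at least 152-fold and 83.5-fold higher. That bound covers counting in the negative group alone and not the spread between cells. Cd44, the osteopontin receptor, likewise had 2.54 and 0.391 CPM in positive cells and 0 counts in negative cells, with 2 cells of each plate holding it after thinning.

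Some genes met the naming rule in 1 plate alone. In wild-type cells Fam118a, Tmem55a, Tspan33 and Uap1 were among the highest and Tmem149, Ube3a, Bace1 and Beta-s among the lowest, and in knockout cells Casp6, Grhpr, Pan2 and Suds3 were among the highest and Nckap5l, Dnm1l, Bloc1s2 and Rad50 among the lowest. Uap1, which makes the sugar donor for N-glycans, stood at 145 against 1.93 CPM in wild-type cells and at 15.0 against 78.9 CPM in knockout cells. Ube3a, a ubiquitin ligase, stood at 2.86 against 90.1 CPM in wild-type cells and had a ratio of 0.05 in knockout cells. Lists of other cell types the gate could hold were read as well. Those of monocyte, neuron, astrocyte, endothelial, pericyte and red blood cell genes had medians of 0 summed CPM in all 4 groups. The highest single cells in wild-type positive against negative groups had 257 against 992 CPM for monocytes and 97.3 against 468 CPM for neurons. They had 252 against 1020 CPM for astrocytes, 152 against 767 CPM for endothelium and 1.79 against 861 CPM for red blood cells. In knockout cells, in that order, they had 75.5 against 176, 0 against 7028, 443 against 377, 14.3 against 983 and 13.4 against 36.8. Neutrophil genes had medians of 58.9 against 12.6 summed CPM in wild-type and 145 against 0 in knockout cells, higher in positive cells of both plates. These sums rest on few genes, as 7 of 9 matched neutrophil genes had 0 counts in each wild-type group. In the knockout positive and negative groups 7 and 8 of 9 had 0 counts. Lymphocyte genes had medians of 12.3 against 0 in wild-type cells and 0 in both knockout groups, and oligodendrocyte-lineage genes 3.43 against 0 and 1.41 against 0. The part of these cell types in the ratios was not tested. In the pericyte list 10 of 10 pericyte and fibroblast genes were at 0 in both wild-type groups. Of the border-associated macrophage list, 2 of 4 measured markers were 2-fold higher in wild-type positive cells, and 2 of 4 were higher and 1 lower in knockout positive cells. All genes had 19.3% higher and 26.7% lower in wild-type and 17.3% and 26.4% in knockout cells. Of 3 markers measured in both plates 1 kept its sign, while Mrc1 had ratios of 0.39 and -1.07 and Stab1 of 0.77 and -0.25. That 1 marker was Folr2, a folate receptor gene higher in both plates, at 54.1 against 14.8 CPM and 77.2 against 24.4 CPM, log2 ratios of 1.80 and 1.62.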

How the data were processed

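Raw counts for 23337 genes (older symbols) and 92 ERCC spike-ins, 1 column per cell, were deposited by the authors in a single table. Reads had been trimmed with Trim Galore 0.4.3 and handled with STAR 2.5.3a, HTSeq and Picard on build mm10, per the submitters' processing notes. Which annotation was counted, and whether strand was used, is not given in the sources read, so overlapping and near-identical genes cannot be separated. Plate, genotype, gate and quality calls came from the labels. Cells that passed all 3 quality criteria were kept, which left out 12 wild-type and 3 knockout unselected cells. Spike-ins (4.69% of counts) stayed out of library sizes. Wells were sorted to hold 1 cell each, and doublets were not searched for.

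Counts were summed over the cells of a group and divided by summed gene counts to give CPM. Genes at 5 CPM or more in either group were measured, 1 CPM was added before log2 ratios, and 2-fold was the limit for a call. Each plate is 1 sample, so no test was made. Shares of cells with a gene were read after thinning to 100000 gene counts. The members and gene lists were chosen with earlier results of these data known. Named genes follow the rule stated beside them, with the 12 largest in each direction and, for 1 plate alone, the 5 largest that the other plate did not share, ranked by the smaller log2 ratio over summed counts and mean CPM per cell. Lists add up to 4 examples each, and the text leaves out 5 of the genes so chosen. Of 581 list symbols matched, 2 were matched by another symbol. Coordinates are from GENCODE M21, matched by symbol. Alternatives were other scalings (edgeR 4.0.16, DESeq2 1.42.0, spike-ins), mean CPM per cell, pseudocount, minimum level, thinning, the Spp1 limit, and leaving out cells, run in Python 3.11.15 and R 4.3.3. The sums were tested on simulated data.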

Additional observations from a re-analysis of the deposited data

Results flagged for a closer look

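Among the genes named, 8 had log2 ratios of positive over negative cells that went in opposite directions in the plates at 2-fold or more. The difference between the plates was not tested, with 1 sample per group. Tmem55a stood at 5.90 in wild-type and -2.69 in knockout cells and Uap1 at 5.63 and -2.32. Casp6, an effector caspase, stood at -2.57 in wild-type and 3.93 in knockout cells, Grhpr at -1.76 and 3.20, and Pan2 at -2.17 and 2.81. Tmem149 stood at -4.88 and 2.54 and Beta-s, a haemoglobin chain gene, at -4.58 and 1.12. The knockout value of Beta-s rests on counts in 1 of 25 positive cells and 0 counts in negative cells. Pf4, a chemokine gene of border-associated macrophages, stood at 3.93 and -1.08. In knockout cells Pf4, at 1.40 against 4.08 CPM, and Beta-s, at 1.17 against 0 CPM, were below the 5 CPM asked of a measured gene, so they are not among the genes measured in both plates. The rule that named most of them asked that the other plate not share the difference, and 936 of the 8798 genes measured in both plates went in opposite directions.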

How the results depend on the processing

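Over 13 alternatives the median of the disease-associated list stayed above 0, from 0.33 to 0.87 in wild-type and from 1.04 to 1.60 in knockout cells. Counts of genes depended most on how scarce RNAs were treated. With 10 CPM added in place of 1 CPM, 1129 genes were higher and 1617 lower in wild-type, 1012 higher and 1539 lower in knockout, 123 higher and 285 lower in both plates, and 405 opposite. With a minimum of 20 CPM, 1537 were lower in wild-type, 1130 higher and 1455 lower in knockout, 173 higher and 291 lower in both, and 468 opposite. Among cells in the middle range of detected genes 1306 were lower in both. Counting any Spp1 count as positive gave 447 genes lower in both and shares of 50.0% (wild type) and 43.3% (knockout). That setting turned the wild-type G2 and M median to 0.22 and the ratios of Arpc5l to 0.39, Smchd1 to 0.28, Beta-s to 1.22, Fen1 to 1.06, Bub1b to 0.20 and Aurka to 0.26 in wild-type and of 3110003A17Rik to 0.056, Mlxipl to 0.019 and B230208H17Rik to 0.53 in knockout cells. The middle range of detected genes turned the knockout hypoxia median to -0.16, Ptpmt1 to -0.32 in knockout, and Csf1 to -0.26, Nsdhl to -0.72 and Cst7 to -0.44 in wild-type cells. Without cells holding border-associated macrophage markers Ccl3 stood at -0.089 and Cst7 at -0.054 in wild-type cells. The cause was not tested in any of these. Single genes have no value under the minimum levels. No paired analysis was possible because each group is 1 sample. With 25 to 65 cells per group and many genes found in few of them, a 2-fold ratio of a gene under 20 CPM can rest on 1 cell.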
